A study of Arabidopsis thaliana with 6 samples.

Results

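The transcripts described here are those of Arabidopsis thaliana that gave a higher array signal in an atm mutant than in the wild type, leaving out genes encoded in the plastid and the mitochondrion. They were chosen by the deposited signals themselves. The lowest of the 3 mutant signals had to be at least 1.2 times the highest of the 3 wild type signals and at least 50, where a typical probe set had a signal near 40. A probe set is a group of short oligonucleotides on the array that together measure a transcript. Of 22746 probe sets without the Affymetrix controls, 69 were left out as organelle genes and 97 because their gene symbols start with CYP, UGT, GST or WRKY. Of the 22580 that could qualify, 11 met the rule, which is 0.0487%. Of these 11, 5 had 1 named gene and 6 were unnamed here, so whether these 6 belong to one of the excluded families or genomes could not be checked. Since these signals chose the members, their differences between the genotypes are given as a description, with no test.

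Total RNA from whole plants at growth stage 1.04 was hybridised to ATH1 arrays, with 3 arrays of the wild type, labelled Col0 (stock N1092), and 3 of the mutant (stock N589805). Its titles read atm, its source name reads ATM1 and its genotype reads AtATM3 mutant, so the allele is unsure, and no background strain is given for it. Seedlings of both groups grew on agar medium with sucrose at 22 °C under 9 h of light and 15 h of dark. The series title speaks of transcripts induced by X-rays, but no label states an irradiation of either group. Nothing in the labels says that the 3 arrays of a group came from separate plantings.

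ATM is a protein kinase that is activated at DNA double-strand breaks. In plants it phosphorylates, among other proteins, the transcription factor SOG1, which switches on genes for repair, for cell cycle arrest and for cell death. Loss of ATM is therefore known mainly for transcripts that fail to rise after damage, and the genes below are those on the opposite side of the comparison. No probe set was named for ATM, so the genotype was not checked at its own transcript.

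Signals of the members were modest in level and in difference. Their wild type means ran from 39.7 to 269, with a median of 52.6, and their mutant means from 60.4 to 439, with a median of 75.8. The geometric mean in the mutant was between 1.29 and 1.73 times that of the wild type, with a median of 1.51. On the log2 scale the median difference of the members was 0.59, and over all 13895 probe sets tested it was 0.01. On each array the members lay between the 46.9th and the 94.0th percentile of the probe sets, so none was among the dimmest.

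**Figure D1:**
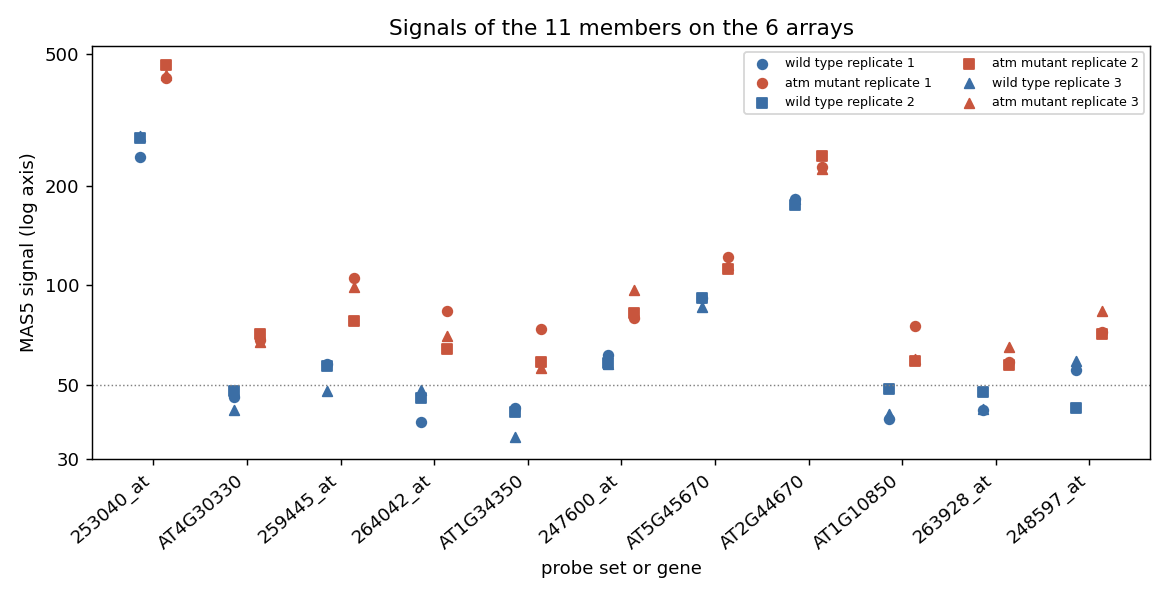
MAS5 signal (log axis) of each member on the 6 arrays, blue for the wild type and red for the atm mutant, with a marker shape for each replicate number. The dotted line is the level of 50 that the lowest mutant signal had to reach, and in every member all red points lie above all blue points, as the rule requires.

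AT4G30330 encodes a small nuclear ribonucleoprotein family protein, and Sm proteins of this kind form the ring around the RNAs of the spliceosome. Its signals were 46.2, 48.1 and 42.2 on wild type replicates 1 to 3 and 68.3, 71.2 and 67.4 on mutant replicates 1 to 3. The mutant mean was 69.0 ± 1.98 and the wild type mean 45.5 ± 3.01 (SD, n = 3 each). The 3 mutant arrays were thus close together, with a coefficient of variation of 2.87%, and the fold of geometric means was 1.52. Among the named members it had the widest separation, with a lowest mutant signal 1.403 times the highest wild type signal.

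AT1G34350 encodes a membrane protein of the TMEM18 family. It had the lowest wild type mean of the 11, with signals of 42.8, 41.4 and 34.8 in the wild type and 73.9, 58.9 and 56.3 in the mutant. Its mutant mean of 63.0 ± 9.48 was 1.58 times the wild type on the geometric scale (wild type mean 39.7 ± 4.27, SD, n = 3 each). Mutant replicate 1 stood above the other mutant arrays, which lay close to each other.

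AT1G10850 encodes a leucine-rich repeat receptor-like kinase, one of the large plant family of membrane kinases that sense outside signals. Signals were 39.5, 48.9 and 40.9 in the wild type and 75.7, 59.3 and 59.95 in the mutant, for a fold of 1.51. Here too mutant replicate 1 was the highest array. The gap between the groups was 10.4 signal units, which is close to the mutant SD of 9.27.

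AT5G45670 encodes a GDSL-type esterase or lipase, an enzyme family that acts on lipid esters and cell wall polymers. Its signals were 91.5, 91.6 and 86.2 in the wild type and 121.5, 112.5 and 115.5 in the mutant. The means were 89.8 ± 3.08 and 117 ± 4.59 (SD, n = 3 each), a fold of 1.298. AT2G44670 encodes a protein with the DUF581 or FCS-like zinc finger domain, a plant family whose members bind the energy-sensing kinase SnRK1. It had 183, 175 and 182 in the wild type and 228, 246 and 224 in the mutant, and its fold of 1.29 was the smallest of the 11. Both genes qualified through a small spread rather than a wide difference, with coefficients of variation from 2.32% to 5.01% within a genotype.

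The 6 unnamed members are given by their probe set IDs. The brightest of all 11 was 253040_at, with 245, 279 and 282 in the wild type and 422, 464 and 432 in the mutant. It also had the widest separation of the 11, a lowest mutant signal 1.496 times the highest wild type signal, and a fold of 1.64. The largest fold, 1.73, was that of 259445_at, with 57.8, 57.4 and 48.0 in the wild type and 105.5, 78.2 and 99.2 in the mutant. Mutant replicate 2 was the lowest mutant array of this probe set. The same array was the lowest for 264042_at, which had 38.8, 45.7 and 48.4 in the wild type and 83.5, 64.5 and 70.4 in the mutant.

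The other 3 unnamed members were highest on mutant replicate 3. The probe set 247600_at had 61.8, 58.3 and 57.9 in the wild type and 79.5, 82.7 and 96.7 in the mutant. For 263928_at the wild type signals were 42.2, 47.6 and 42.4 and the mutant signals 58.6, 57.7 and 65.1. The narrowest member was 248597_at, with 55.7, 42.6 and 59.4 against 72.2, 71.3 and 83.7. Its wild type coefficient of variation of 16.8% was the highest of the 11, because wild type replicate 2 lay below the other wild type arrays.

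The highest and the lowest array of a genotype differed between members. Mutant replicate 1 was the highest mutant array in 5 of the 11 members, replicate 2 in 3 and replicate 3 in 3. Mutant replicate 2 was the lowest mutant array in 6 of 11. Relative to each member's wild type mean, the median log2 signal was 0.59, 0.48 and 0.57 on mutant replicates 1, 2 and 3, and 0.02, 0.06 and -0.05 on the wild type arrays. The groups do not overlap on this scale, which the rule requires.

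**Figure D2:**
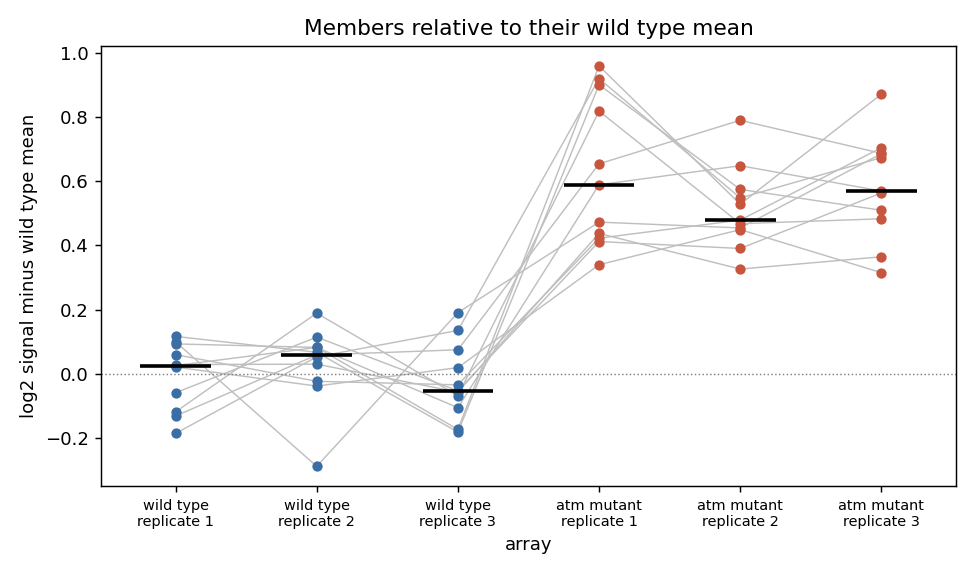
Log2 signal of each of the 11 members on each array, minus that member's wild type mean (points joined by a grey line per member, black bars the median over members). The mutant medians lie between 0.48 and 0.59 and the wild type medians between -0.05 and 0.06.

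A rule on the extremes of each group favours probe sets that vary little within a genotype. The pooled within-genotype SD of log2 signal ran from 0.05 to 0.20 over the members, with a median of 0.11. Over the 8312 tested probe sets with a mean signal in the same range the median was 0.21.

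The members sat at the edge of a continuum. Of the 22580 probe sets, 1050 (4.65%) had all 3 mutant signals above all 3 wild type signals, and 365 of these had a lowest mutant signal of at least 50. The ratio of 1.2 then left 11. Just inside the ratio were 248597_at at 1.201, 263928_at at 1.212, AT1G10850 at 1.214 and AT2G44670 at 1.227. Just outside were AT1G77220 at 1.19975, 251813_at and AT1G49200, both at 1.197, and GH9C2 at 1.193. AT1G49200 encodes a RING-H2 finger protein, and GH9C2 a glycosyl hydrolase of the endoglucanase family that acts on cellulose. GH9C2 had 101, 92.4 and 98.0 in the wild type and 143, 121 and 135 in the mutant, a fold of 1.37 that is larger than that of AT5G45670.

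The level of 50 also left out close cases. The members nearest to it were AT1G34350, 263928_at and AT1G10850, with lowest mutant signals of 56.3, 57.7 and 59.3. Just below it were 263318_at at 49.6, AT4G12490 at 48.5 and 260337_at at 47.5. AT4G12490 encodes a lipid transfer protein of the EARLI1 type, a group of small secreted cell wall proteins. It had 33.2, 37.0 and 38.3 in the wild type and 147, 48.5 and 138.5 in the mutant, so that only mutant replicate 2 kept it below the level. Its fold of 2.76 was larger than that of any member.

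**Figure D3:**
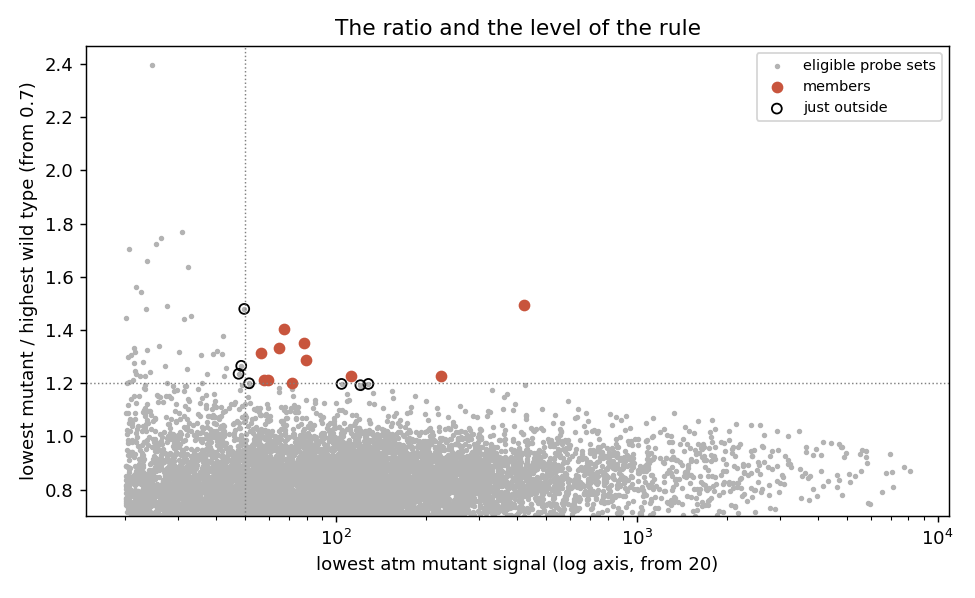
Lowest mutant signal (x, log axis from 20) against the ratio of the lowest mutant to the highest wild type signal (y, from 0.7) for the probe sets that could qualify, in grey. Members are red, the 7 probe sets just outside are open circles and dotted lines mark the level of 50 and the ratio of 1.2, and 253040_at at a ratio of 1.496 stands apart from the other members by its level.

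The same rule turned round found more and wider differences. Among the same 22580 probe sets, 95 (0.421%) were lower in the mutant by the same ratio with a lowest wild type signal of at least 50. The balance of directions changed when any 1 array was left out, and fewer arrays make the rule easier to meet. Without wild type replicate 1 there were 132 higher and 220 lower, and without mutant replicate 2 there were 144 higher and 251 lower. Leaving out 1 of the other arrays gave 34 to 39 higher and 115 to 131 lower. With all 6 arrays the ratios of the 95 ran up to 38.4 with a median of 1.49, so the highest ratio among the 11 members, 1.496, was close to the median of the lower set. At a ratio of at least 1.3 there were 5 probe sets higher and 69 lower, and at 1.5 there were 0 higher and 47 lower. Without regard to size the directions were nearly equal, since all mutant signals lay below all wild type signals in 1019 probe sets (4.51%).

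**Figure D4:**
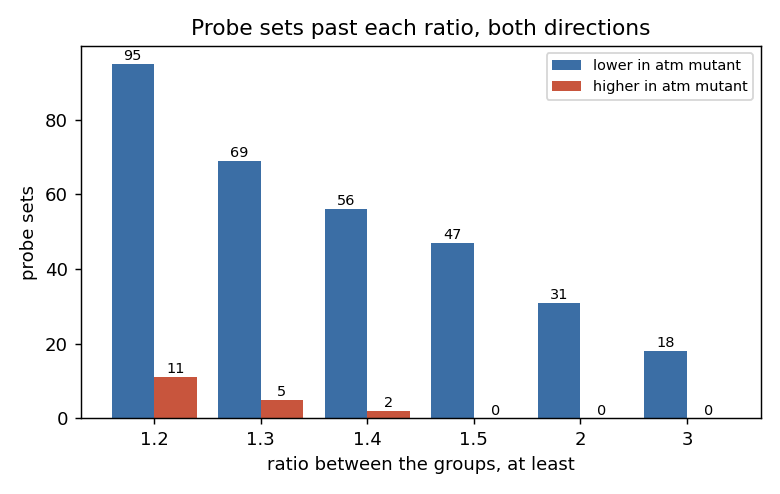
Number of probe sets (y) whose groups differ by at least the ratio on the x axis, with the lowest signal of the higher group at 50 or more. Those lower in the atm mutant (blue) fall from 95 at 1.2 to 18 at 3, and those higher in it (red) from 11 at 1.2 to 0 at 1.5.

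The rule also asks how many probe sets qualify when the 3 high arrays mix the genotypes, and 11 lay within the range of those counts. There are 18 such groupings. They gave 2 to 67 probe sets with a median of 14, and 10 of the 18 gave more than the 11 found for the mutant. The counts followed wild type replicate 1 and mutant replicate 2. In the 8 groupings with these arrays on the same side 35 to 67 probe sets qualified. In the 10 with them on opposite sides, as they are in the comparison of genotypes, 2 to 16 qualified with a median of 5, and 2 of the 10 gave more than 11. The count of 95 lower probe sets was above that of each of the 18.

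**Figure D5:**
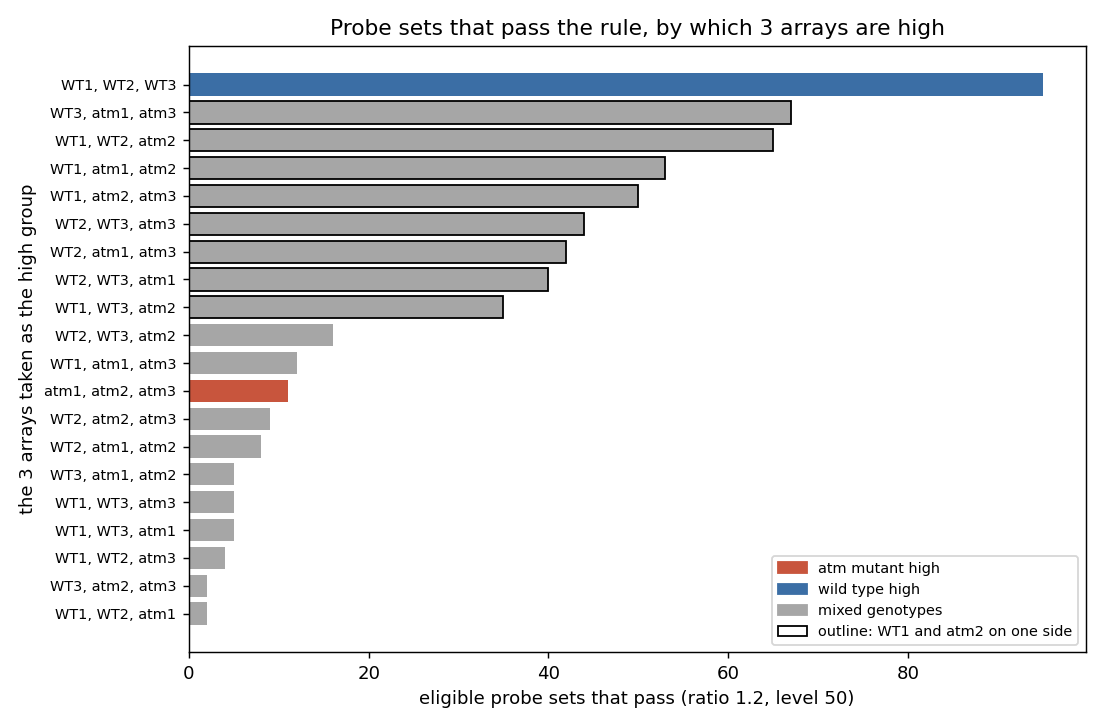
Probe sets that meet the rule for each choice of 3 arrays as the high group (x, count; WT1 to WT3 and atm1 to atm3 are the replicates), the mutant in red, the wild type in blue and mixed genotypes in grey. Outlined bars have WT1 and atm2 on the same side, and the mutant's count of 11 lies among the grey bars while the wild type's 95 lies above them.

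The linear model across all probe sets gave no higher call. Limma (log2 signals, Benjamini-Hochberg adjusted p under 0.05) called 0 of 13895 tested probe sets higher in the mutant (0%) and 31 lower (0.223%). At an unadjusted p under 0.05 there were 167 higher and 300 lower. Together these are less than a share of 0.05 of the 13895 tests, so they are not read as differences. All 11 members were tested and 0 were called, and nothing about the members is read from this, since the rule used the same contrast. Without wild type replicate 1 and mutant replicate 2 limma called 76 higher and 157 lower. An earlier analysis of these same data had found these arrays to deviate, so both counts rest on a choice made from the data. On those other 4 arrays 326 probe sets met the rule and 434 met it turned round. The 11 members were all among the 326, as the rule on fewer arrays makes certain.

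Those 2 arrays resembled each other more than their own genotypes. The Pearson correlation of log2 signals across tested probe sets was 0.965 between wild type replicate 1 and mutant replicate 2, but 0.926 and 0.930 between the former and wild type replicates 2 and 3. Probe sets are not independent replicates. The control for 25S ribosomal RNA read 836 and 2123 on this pair, and 4106 to 5400 elsewhere. The ratio of the 3' to the 5' GAPDH control probe set, which rises as RNA is degraded, was 1.409, 1.079 and 1.101 on the wild type arrays and 1.559, 1.486 and 1.405 on the mutant arrays. The same ratio for actin was 11.1, 8.35 and 9.72 against 9.10, 9.33 and 9.94, so that the genotypes overlapped. The part of RNA quality in the members' differences was not tested. Wild type replicate 1, whose GAPDH ratio lay within the mutant range, was the highest wild type array in 4 members and the lowest in 4. The rule had already placed this array below every mutant array in each member, so these ranks say nothing of RNA quality.

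The marker genes of organs that were named on the array had overlapping levels in the 2 genotypes. Of 7 root markers 2 were named, and their summed signal was 2983 to 3349 in the wild type and 2966 to 3653 in the mutant. Most of it came from PYK10, a root beta-glucosidase. Of 4 leaf markers only RCA, Rubisco activase, was named, with 4133 to 6177 in the wild type and 4826 to 5520 in the mutant. CLV3, a peptide gene of the shoot meristem, had only low signals on every array, at 0.984 to 4.95 and 1.24 to 4.05. No flower, pollen or seed marker was named. In whole plants, a different share of a cell type and a different RNA level per cell cannot be told apart.

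The 5 named genes lay on chromosomes 1, 2, 4 and 5 of the TAIR10.1 reference, 2 of them on chromosome 1, and each had a single named probe set. Lists of gene families and pathways, 24 in all, were matched on symbols and reference names and held 206 tested genes in 20 of them. None of the 5 members was matched to a list, but the reference gives them no descriptive name, so this says nothing of their families. AT1G10850, a receptor-like kinase by general knowledge, was missed by the receptor kinase list, which matched 1 gene. Limma called 0 of these 206 higher and 0 lower. Over all 13895 tested probe sets it called 0 higher and 31 lower (0.223%), so these zeros say nothing particular of the lists. The list medians of the log2 difference ran from -0.08 to 0.22, beside 0.01 over the 7314 nuclear genes tested. The lowest was that of iron and metal handling, over 3 genes. The highest was that of cold, dehydration and abscisic acid, over 9 genes, of which 0 had the 2 genotypes apart in either direction. These are the extremes of 20 lists and rest on few genes. For DNA repair and replication the median was 0.13 over 4 genes, and for the cell cycle 0.04 over 4. In the largest list, F-box and ubiquitin ligase genes, it was -0.0022 over 55 genes.

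Genes with a named probe set near the named members on the chromosome did not meet the rule. Places without a named probe set could not be looked at. The lowest mutant signals of AT4G30320, AT1G34340, AT1G34360, AT5G45650 and AT5G45690 were 2.08, 45.4, 27.6, 35.5 and 1.05. These lay below the level of the rule, so these genes could not meet it whatever their ratio. Of the 20 places 2 steps to either side of the 5 named members, 8 held a gene with a named probe set and 6 of these were tested. Limma called 0 of the 6, with adjusted p = 0.9996 for each, and 2 were above and 4 below zero. Since limma called 0 of all 13895 tested probe sets higher and 31 lower (0.223%), this count says nothing particular of the neighbours. The widest was AT1G34360, on the far side of AT1G34350, with 19.8, 28.2 and 26.1 in the wild type and 33.3, 27.6 and 34.7 in the mutant, a log2 difference of 0.38 (SE 0.25) whose groups overlapped. AT1G34340, beside AT1G34350, had a log2 difference of 0.05 (SE 0.19). AT2G44660, beside AT2G44670, had -0.13 (SE 0.17) and AT4G30310, near AT4G30330, had -0.12 (SE 0.14). Z-ISO, the carotenoid enzyme 15-cis-zeta-carotene isomerase near AT1G10850, had -0.06 (SE 0.15).

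The plastid genes ndhE and rpl36 also passed the ratio and the level and were left out as organelle genes. The gene ndhE, which encodes part of the NDH complex of the thylakoid membrane, had 146, 135 and 140 in the wild type and 220, 275 and 284 in the mutant, and rpl36, for a plastid ribosomal protein, had 370, 249 and 407 against 496, 547 and 540. No probe set with a symbol starting CYP, UGT, GST or WRKY passed.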

How the data were processed

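Signals were deposited by the authors as linear intensities, 1 for each probe set on each array. Per the submitters' processing notes they came from MAS5 in GCOS. For the scaling target and detection calls, the sources used here give nothing. Arrays have no read depth, and 3 arrays per group limit the precision. The rule was applied to the deposited intensities unchanged. Limma 3.58.1 (R 4.3.3; eBayes with intensity trend, no block) was run on log2 values of probe sets that exceeded the 40th percentile on 3 or more arrays, after a check on simulated data. Its p-values measure the spread between these arrays, which may be technical, and an exact test of 3 against 3 cannot go below 0.1.

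Names came from the platform annotation (13513 probe sets with 1 gene, 503 with several, 8730 unnamed), updated through RefSeq TAIR10.1. Family roles are general knowledge. The text was to name up to 12 members each by separation and by fold, 8 by level, the nearest probe sets on both sides of each limit and 3 unnamed members; 247600_at is added to account for all 11. Members, gene lists and alternatives were chosen with earlier results of these data known. Promoter motifs were not analysed here.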

Additional observations from a re-analysis of the deposited data

How the results depend on the processing

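The count of 11 members depended on where the rule was set. It was 64 at a ratio of at least 1.1 and 0 at 1.5, and it was 35 at a level of at least 25 and 3 at 100. With same-numbered arrays compared as pairs (replicate block) it was 55. Without 1 array at a time it ranged from 34 to 144, and it was 326 without wild type replicate 1 and mutant replicate 2; fewer arrays make the rule easier to meet. Without wild type replicate 1 alone it was 132 and without mutant replicate 2 alone 144. Median scaling gave 12 probe sets, 10 of them members, and lost 248597_at. Quantile normalization gave 10, of which 8 were members, and lost AT1G10850, 263928_at and 248597_at.

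Limma calls were 5 higher and 68 lower with array weights, 16 and 92 with a term for the 2 deviating arrays, and 76 and 157 without them. Without 1 array at a time they were 0 to 1 higher and 13 to 35 lower, the 13 without wild type replicate 2 and also without wild type replicate 3. With the replicate block they were 0 higher and 11 lower. Deviations of same-numbered arrays from their group means correlated at -0.46, -0.46 and 0.38, so the numbers were not taken to pair the samples. The other alternatives gave 0 higher and 28 to 34 lower.

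The median log2 difference of the members fell from 0.59 to 0.40 with a pseudocount of 25.3, the 40th percentile, and was 0.56 to 0.64 without 1 array at a time. No member's difference changed sign under the 10 alternatives. With arrays left out or a pseudocount added this was certain, since the rule had set all mutant signals above all wild type signals. In 101 of 110 cases the difference moved by less than the pooled SD between replicates, and 8 of the 9 larger moves came with the pseudocount. Low signal limits 8 of the 11 members, whose wild type means were under 60.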
